A study of Mus musculus with 18 samples.

Results

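Hearts of 2-week-old mice in which both Cops8 alleles were floxed and cardiomyocytes expressed Cre (homozygous knockout, Hom-CKO, n = 3) were compared with hearts of age-matched controls (CTL, n = 3). These are 6 of the 18 hearts of the series, taken by the genotype and age in their labels and not by any measured value. All mice were FVB/N, and each CodeLink whole mouse genome array held ventricular RNA of 1 animal. CTL mice were Csn8flox/flox::Myh6-CreNTG, Hom-CKO mice were Csn8flox/flox::Myh6-CreTG, and Het-CKO mice, which carried the same transgene and 1 floxed allele, were Csn8flox/+::Myh6-CreTG. The other arrays were 3 Het-CKO hearts at 2 weeks and 3 hearts of each genotype at 3 weeks. In the floxed allele loxP sites surround exons 4 to 6 of Cops8, and the alpha-myosin heavy chain promoter of the transgene (Myh6) drives Cre in cardiomyocytes, so that other cells of the ventricle keep the gene. CTL hearts carried no Cre, so Cre and the deletion cannot be told apart in Hom-CKO vs. CTL.

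Cops8 encodes a subunit of the COP9 signalosome (CSN), the complex that removes the ubiquitin-like protein NEDD8 from cullins. Cullins are the scaffolds of cullin-RING ubiquitin ligases (CRLs), which mark proteins for the proteasome through exchangeable substrate receptors of the F-box, SOCS-box and BTB-Kelch families. In the mouse heart, the weeks after birth are a time of maturation, when fetal forms of sarcomere and metabolic genes give way to adult ones, and a stressed ventricle can take up the fetal gene program again.

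Levels below are array intensities after quantile normalization, given relative to the median probe of an array, and a fold change is a difference of mean log2 levels. A probe was called at an adjusted p under 0.05 in a limma fit across all tested probes. The floor of the scale is 0.318. Before normalization the median raw intensity was 38.7 to 47.7 on the CTL arrays and 42.3 to 56.2 on the Hom-CKO arrays, so that CTL arrays were dimmer on the whole, and each finding was also computed with arrays scaled to their medians alone. The arrays differed in sex-linked genes as well. Xist, the RNA of the inactive X chromosome, was at 15.9, 18 and 16.9 in the CTL hearts and at 19.7, 0.318 and 0.318 in the Hom-CKO hearts, while Y-linked Ddx3y was at the floor in all 3 CTL hearts and at 0.318, 9.93 and 10.6 in the Hom-CKO hearts. In these genes Hom-CKO replicates 2 and 3 thus stood apart from the other 4 hearts, and counts are also given with the Y-linked level as a covariate and without those 2 hearts. A limma p-value here sets a difference against the spread within groups over all 18 arrays, Het-CKO and 3-week hearts among them. It does not rest on the 6 compared hearts alone. A fit on those 6 arrays called 268 probes, against 802 in the main fit. Each group still held only 3 hearts.

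The targeted gene came first. Its brighter probe (GE127307) read 31.5, 34.6 and 38.2 in CTL and 39.9, 41.4 and 34.9 in Hom-CKO hearts (log2 fold change 0.16, SE 0.10, adjusted p = 0.534), and the groups overlapped. The other probe (GE102689) read 25.9, 27.6 and 23.5 in CTL and 26.4, 23.1 and 23.2 in Hom-CKO hearts (log2 fold change -0.08, adjusted p = 0.743). In Het-CKO hearts GE127307 read 37.5, 34.2 and 34.8, and at 3 weeks it read 33, 31.3 and 30.8 in CTL, 35.4, 30.2 and 26.9 in Het-CKO and 35.2, 35.4 and 35.8 in Hom-CKO hearts. Where these probes lie relative to the deleted exons is not known here, so they check neither the deletion nor the labels. Of the 9 CSN subunit genes tested, none was called in Hom-CKO vs. CTL, and their median log2 fold change was -0.09.

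Hom-CKO and CTL hearts differed at 802 of 26583 probes (3.02%), of which 342 were higher in Hom-CKO (1.29%) and 460 lower (1.73%). A difference of at least 1 on the log2 scale was found for 136 of them (0.512%), 62 higher and 74 lower. By name, 694 genes had a called probe. All but 1 of the 802 called probes showed no overlap between the 6 hearts, against 19.1% of all probes with 3 values in each group. With 3 hearts a group a call nearly requires such separation, so this adds nothing to the calls. The 802 also include probes with a missing heart. Median scaling moved bright probes down in Hom-CKO hearts and the median of all probes to -0.05 on the log2 scale. With it 893 probes were called, 222 higher and 671 lower, so that higher calls made up 24.9% rather than 42.6%, and 673 of the 802 calls were shared with none of opposite sign. With the Y-linked level as a covariate 429 probes were called (398 shared), and without Hom-CKO replicates 2 and 3, when a single Hom-CKO heart is left and is assumed to vary like the other groups, 200 were called (186 shared).

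**Figure D1:**
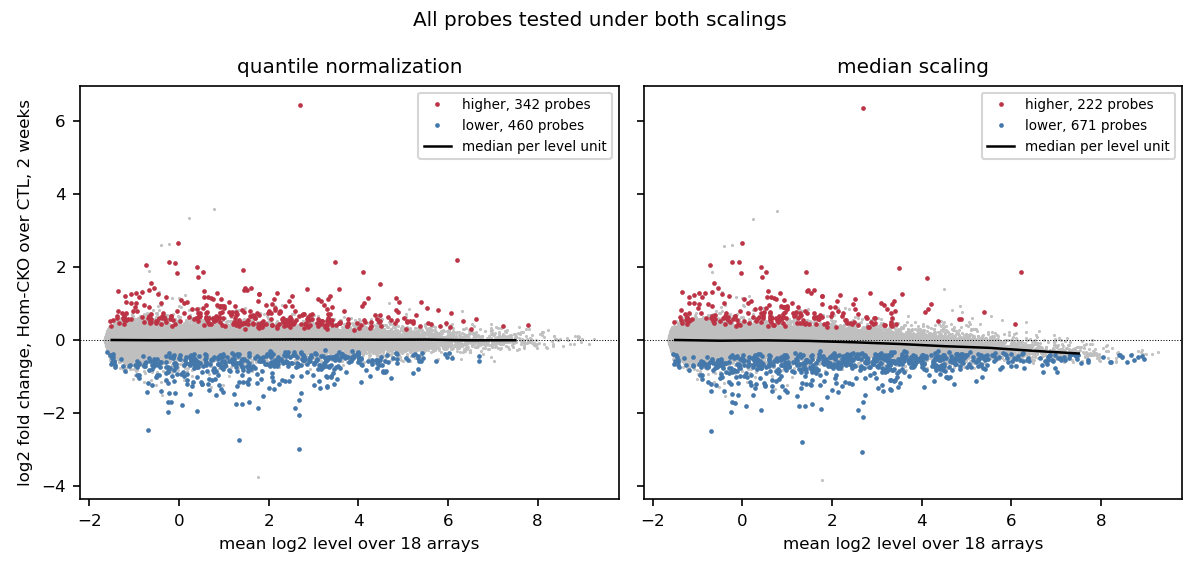
Each grey point is a probe, with its mean log2 level over 18 arrays on the x axis and its Hom-CKO over CTL log2 fold change at 2 weeks on the y axis, after quantile normalization (left) and median scaling (right). Red and blue points are called probes, 342 higher and 460 lower on the left and 222 higher and 671 lower on the right, and the black line, the median per unit of level, stays near 0 on the left and falls below 0 at bright probes on the right.

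The 12 largest rises included the probes of a stress cytokine, cardiac stress genes, a T-box factor and a synaptic vesicle protein, and among the other rises was a kinase. Gdf15, a secreted member of the TGF-beta family, was at 0.448, 0.452 and 0.664 in CTL and 5.45, 3.77 and 1.65 in Hom-CKO hearts, 6.31-fold higher (log2 fold change 2.66, SE 0.33, adjusted p = 0.000215). The lowest Hom-CKO heart, replicate 3, was still above every CTL heart. Prkcd, which encodes protein kinase C delta and stood outside those 12, was at 4.73, 4.73 and 4.31 in CTL and 12.2, 11.6 and 12.5 in Hom-CKO hearts (log2 fold change 1.40, SE 0.08, adjusted p = 1.27e-07). Another Prkcd probe (GE127325) was not called (log2 fold change -0.13, adjusted p = 0.53), so the rise rests on 1 probe. Tbx15, a T-box transcription factor of the developing skeleton and muscle, rose on both of its tested probes, by 2.14 (GE33765) and 1.72 (GE1411706) on the log2 scale. Its GE1411706 level was 0.587, 0.517 and 0.776 in CTL and 2.56, 2.04 and 1.6 in Hom-CKO hearts, again without overlap. Syn2, which encodes the synaptic vesicle protein synapsin II, was at 0.761, 0.76 and 0.74 in CTL and 2.58, 3.36 and 3.07 in Hom-CKO hearts on probe GE39786 (log2 fold change 1.99, adjusted p = 7.09e-07). Its 5 tested probes disagreed in size: GE42716 rose by 2.11 and the brightest, GE1401758, by 0.45, while GE1509847 (0.08) and GE105969 (-0.02) were not called.

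**Figure D2:**
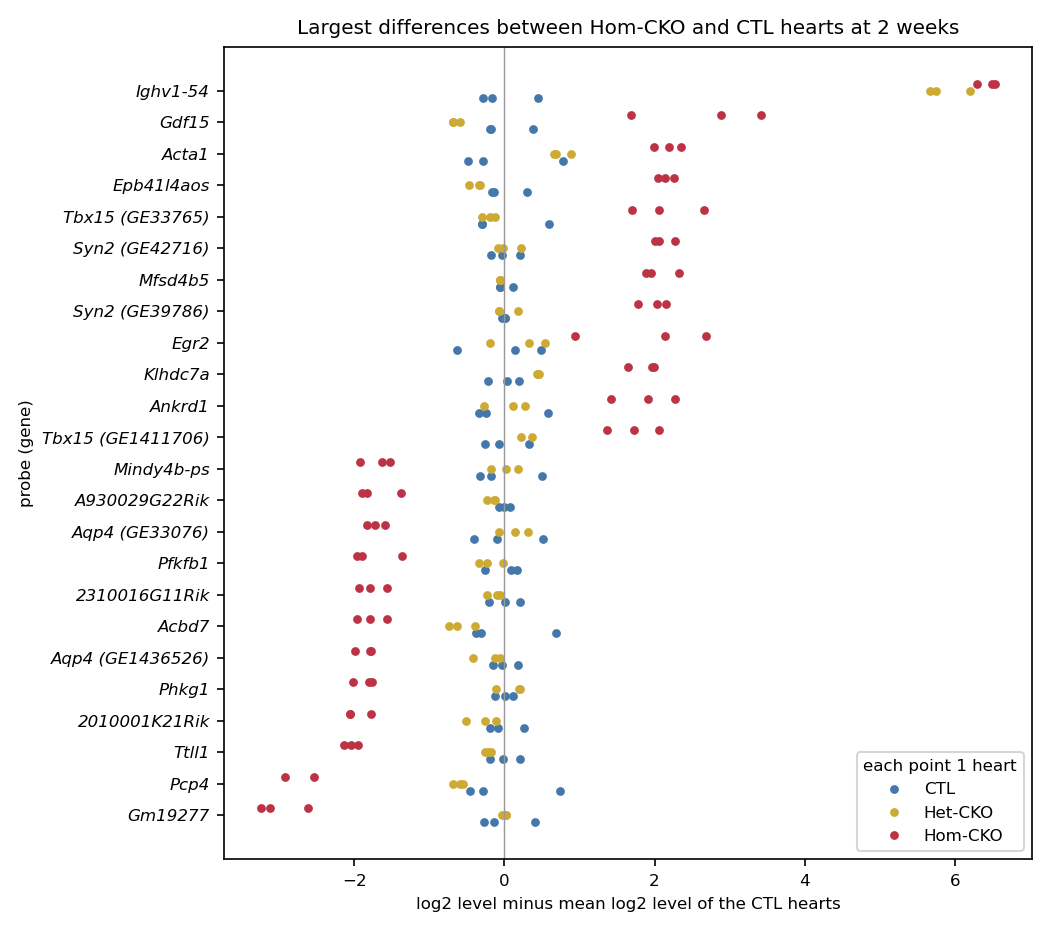
Each point is 1 heart at 2 weeks, placed by its log2 level minus the mean log2 level of the 3 CTL hearts of that probe (blue CTL, yellow Het-CKO, red Hom-CKO), for the 12 largest rises and 12 largest falls among probes whose Hom-CKO and CTL hearts do not overlap. Non-overlap was a condition of the choice, and the Het-CKO points of the probe named Ighv1-54 lie with those of Hom-CKO.

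Other large rises came from an antisense RNA, a transporter-like gene and a protease inhibitor. Epb41l4aos, an RNA antisense to Epb41l4a, rose by 2.15 on the log2 scale, Mfsd4b5, of the major facilitator family of transporters, by 2.06 and Klhdc7a, a Kelch-domain protein gene, by 1.87. Serpinb1c, a serine protease inhibitor gene, was at 1.06, 0.843 and 0.609 in Hom-CKO hearts and not above background on any CTL array, which puts it at least 2.56-fold higher. Its adjusted p of 2.32e-05 in the limma fit takes the CTL values as measured, so it does not test a measured difference. The largest difference of all tested probes, a log2 fold change of 6.44 (SE 0.21), came from a probe that the platform annotation names Ighv1-54 and that the array files mark as having several targets. It read 0.318, 0.531 and 0.344 in CTL hearts (above background on 2 of the 3 arrays) and 30.3, 36 and 35.1 in Hom-CKO hearts, and 19.7, 28.4 and 20.9 in Het-CKO hearts. The 12 lymphocyte markers tested showed no call, with a summed level of 27.5 to 30.5 in CTL and 29.5 to 30.9 in Hom-CKO hearts.

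The largest falls included genes of calmodulin binding, tubulin modification, glycogen and fructose phosphate metabolism, and membrane channels. Ttll1, the catalytic subunit of a tubulin polyglutamylase, was at 10.0, 7.57 and 8.56 in CTL and 1.97, 2.24 and 2.1 in Hom-CKO hearts (log2 fold change -2.04, SE 0.11, adjusted p = 4.46e-08). The lowest CTL heart was above the highest Hom-CKO heart by a wide margin, although another Ttll1 probe (GE112664) was not called (log2 fold change -0.31, adjusted p = 0.122). Pcp4, a small peptide that binds calmodulin, was at 9.06, 3.96 and 4.48 in CTL hearts and at 0.937 and 0.716 in the 2 Hom-CKO hearts whose spot was usable (log2 fold change -2.73, SE 0.38, adjusted p = 0.000739). Aqp4, a water channel, was at 6.08, 7.05 and 5.62 in CTL and 1.56, 1.81 and 1.8 in Hom-CKO hearts, and fell on both of its probes (-1.85 and -1.71 on the log2 scale). Gstk1, a glutathione S-transferase of mitochondria and peroxisomes, was at 6.63, 4.91 and 6.12 in CTL and 2.01, 1.82 and 1.76 in Hom-CKO hearts (log2 fold change -1.65, adjusted p = 4.52e-07). Gm19277, a predicted gene, fell by 2.99 on the log2 scale.

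The plain test of the study's methods takes each probe and the 6 arrays alone. Of the 24 probes that make up the 12 largest rises and the 12 largest falls, some were not tested in every alternative. Among the 24, 21 were called in every alternative that tested them, other than the plain test. The exceptions were Acta1 and Acbd7, which were not called without Hom-CKO replicates 2 and 3, and Egr2, which was not called in a fit on the 6 arrays alone or without some single hearts. That test called 10 probes in all once adjusted by the Benjamini-Hochberg method, and 2828 unadjusted.

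The gene lists of this report were chosen with earlier results of these data known, so their counts are descriptions and not tests. Each list count is to be read against all genes, of which 1.6% were called higher and 2.11% lower. The fetal gene program rose in part. Of 11 genes tested, 3 were called, all higher (Acta1, Ankrd1 and Nppa), against 1.6% of all 16609 genes at their brightest probe called higher and 2.11% called lower, and the list's median log2 fold change was 0.28 against 0.00 over all genes. Acta1, the skeletal actin of the fetal heart, was at 22.5, 26 and 54.3 in CTL and 162, 144 and 126 in Hom-CKO hearts (log2 fold change 2.18, SE 0.33, adjusted p = 0.00168). Its groups did not overlap, with CTL replicate 3 the highest of the controls. Ankrd1, a titin-binding cofactor that responds to stretch, was at 7.73, 13.8 and 7.28 in CTL and 44.3, 34.5 and 24.7 in Hom-CKO hearts (log2 fold change 1.87, adjusted p = 0.000455). Nppa, the atrial natriuretic peptide gene, was at 7.18, 14.8 and 6.73 in CTL and 27.6, 29.7 and 21.6 in Hom-CKO hearts (log2 fold change 1.54, adjusted p = 0.0481). It was not called under median scaling (adjusted p = 0.0696) or with the Y-linked covariate (adjusted p = 0.12). Nppa was also not called on leaving out any of 5 hearts, and lost the call in 16 of 20 alternatives. Nppb, the B-type natriuretic peptide gene, was at 74.5, 73.3 and 61.8 in CTL and 152, 116 and 97.4 in Hom-CKO hearts, which did not overlap but missed the threshold (log2 fold change 0.78, adjusted p = 0.0945). The fetal myosin gene Myh7 was not called at its brightest probe (log2 fold change 0.28, adjusted p = 0.756), while its probe GE32959 was (log2 fold change 0.63, adjusted p = 0.0429). Under median scaling the list had 2 genes higher and 1 lower, and without Hom-CKO replicates 2 and 3 it had 1 higher. Nppa was also the 1 called gene of 12 atrial and conduction markers, whose summed level was 104 to 139 in CTL and 110.5 to 137 in Hom-CKO hearts, and the part of atrial tissue in the result was not tested.

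Immediate early genes are transcription factors and regulators switched on within minutes of a stimulus. They had 4 of 24 genes higher and none lower, against 1.6% and 2.11% of all genes. The list's median log2 fold change was 0.33. Egr2 was at 1.3, 2.83 and 2.23 in CTL and 13, 8.89 and 3.87 in Hom-CKO hearts (log2 fold change 1.92, SE 0.38, adjusted p = 0.00926). Egr1 rose by 1.43, Myc by 1.18 and Rcan1, an inhibitor of calcineurin, by 0.93 on the log2 scale. These calls depended on single hearts: without CTL replicate 1 the list had 1 gene higher, and with the Y-linked covariate it had 1. Egr2 itself was not called without CTL replicate 1, Hom-CKO replicate 1 or Hom-CKO replicate 2.

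2 of the genes above, Acta1 and Egr2, carry a CArG box, the site bound by serum response factor, within their RefSeq promoter windows of 250 bases before to 50 bases after a transcription start (GRCm38.p6), and 30 bases around each are shown with the box in capitals because the called fetal and immediate early genes are often described as targets of that factor. The Acta1 window is at chr8:123894829-123894858 on the minus strand and the Egr2 windows are at chr10:67537484-67537513 and chr10:67537787-67537816 on the plus strand.
Acta1: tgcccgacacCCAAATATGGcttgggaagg
Egr2 (a): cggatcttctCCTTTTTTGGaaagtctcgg
Egr2 (b): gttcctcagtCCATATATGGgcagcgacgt
A box on either strand is held by 1.63% of all 32851 promoter windows and, since a gene can have several windows (Egr2 has 5), by at least 1 window of 1.81% of genes. It was found in 1 of the 3 called fetal genes (Ankrd1 and Nppa had none) and in 1 of the 2 called immediate early genes with an entry (Rcan1 had none). This is a description of letters in a window and shows no binding.

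Genes that p53 is known to switch on had 6 of 24 members higher and none lower, against 1.6% and 2.11% of all genes. The list's median log2 fold change was 0.18. Besides Gdf15, the higher members were Cdkn1a, Aen, Phlda3, Zmat3 and Bax. Cdkn1a, the cell cycle inhibitor p21, was at 5.66, 5.22 and 5.32 in CTL and 13.8, 11.8 and 10.1 in Hom-CKO hearts, without overlap (log2 fold change 1.13, SE 0.17, adjusted p = 0.000982). Aen, an exonuclease of apoptosis, rose by 0.82, Phlda3, a repressor of Akt, by 0.80, Zmat3, an RNA-binding protein, by 0.55, and Bax, a pore former of mitochondrial cell death, by 0.45 on the log2 scale. Another Aen probe (GE116665) had a log2 fold change of 0.02. Under median scaling 4 genes were higher and 1 lower, Aen and Bax no longer among the calls, and 3 were higher with the Y-linked covariate. Bax was not called on leaving out any of the 6 hearts, and Aen was not called on leaving out any of 5. The wider cell death list, 39 genes, had Bax and the adaptor Traf3 higher and Tnfaip8 lower.

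The cell cycle list had a median log2 fold change of 0.35, and 34 of its 38 genes were above 0, but Ccnd2 was its only called member (log2 fold change 0.62). Ccnd2, a cyclin of the G1 phase, was not called under median scaling. Across all genes 50.1% were above 0.

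NRF2 is the transcription factor that a CRL with KEAP1 keeps low. Its targets had 5 of 33 genes higher and 1 lower, against 1.6% and 2.11% of all genes. The list's median log2 fold change was 0.08. Txnrd1, a thioredoxin reductase, was at 3.52, 3.82 and 4.52 in CTL and 7.66, 8.04 and 6.97 in Hom-CKO hearts (log2 fold change 0.94, adjusted p = 0.000209). Nqo1, a quinone reductase, was at 4.73, 3.92 and 4.56 in CTL and 7.31, 7.24 and 6.91 in Hom-CKO hearts (log2 fold change 0.70, adjusted p = 0.000557). The groups did not overlap for either gene. Srxn1, which repairs oxidized peroxiredoxins, rose by 0.69, Ephx1, an epoxide hydrolase, by 0.64, and Gclc, which starts glutathione synthesis, by 0.55 on the log2 scale. Dimmer probes of Nqo1 (GE1522165, 0.53) and Gclc (GE105809, 0.24) were not called. The member that fell was Gstk1. Other known targets did not pass the test: Hmox1 had a log2 fold change of 0.33 and Gclm one of 0.21. Under median scaling 4 were higher and 3 lower, with the Y-linked covariate 4 and 1, and without Hom-CKO replicates 2 and 3 these were 2 and 1.

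The core of the antioxidant response element, to which NRF2 binds, was searched for as TGACNNNGC on both strands of the same promoter windows, and the 2 called genes that hold it are shown with the match in capitals. Both matches lie on the strand opposite to the gene, so the capitals give the reverse complement. The Srxn1 window is at chr2:152105542-152105571 and the Txnrd1 window at chr10:82859104-82859133, both on the plus strand of GRCm38.p6.
Srxn1: gcagtgggcaGCTAGGTCAgagtgagacac
Txnrd1: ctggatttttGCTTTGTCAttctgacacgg
The core is in 12.4% of all promoter windows, in at least 1 window of 14.0% of genes, and in 2 of the 5 called genes with an entry (Txnrd1 has 3 windows), so these matches are a description only. Nqo1, Ephx1 and Gstk1 had no match in their windows.

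The integrated stress response list holds genes that ATF4 controls when translation is slowed. Of these, 4 of 25 were higher (Gdf15, Mthfd2, Atf4 and Nars) and 1 lower (Aldh1l2), against 1.6% and 2.11% of all genes. Under median scaling 2 were higher and 1 lower. Nars was not called under median scaling, with the Y-linked covariate or on leaving out any of 5 hearts. Atf4 itself was at 74.9, 71.1 and 72.1 in CTL and 111, 101 and 102 in Hom-CKO hearts (log2 fold change 0.52, adjusted p = 0.00272), but its log2 fold change under median scaling was 0.21 (adjusted p = 0.459). Mthfd2 and Aldh1l2, mitochondrial enzymes of folate metabolism, moved in opposite directions, by 0.68 and -0.74 on the log2 scale. With the Y-linked covariate 2 genes of the list were higher and 1 lower. Of 30 heat shock and chaperone genes none was higher, and the small heat shock genes Hspb2 (-0.55) and Hspb3 (-0.49) fell.

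Matrix genes had 5 of 38 members higher and 1 lower, against 1.6% and 2.11% of all genes. Of the 38, 30 were above 0, and the median log2 fold change was 0.24. Thbs4, a matricellular thrombospondin, was at 6.46, 6.67 and 8.75 in CTL and 14.1, 15.5 and 17.6 in Hom-CKO hearts (log2 fold change 1.12, adjusted p = 0.000242). Col8a1, a short-chain collagen, rose by 1.13, Cilp, a matrix protein, by 1.06, the proteoglycan Bgn by 0.54 and the growth factor Tgfb2 by 0.36 on the log2 scale. Emilin2, a glycoprotein of elastic fibres, was at 11.4, 16.5 and 12 in CTL and 6, 5.77 and 6.25 in Hom-CKO hearts (log2 fold change -1.13, adjusted p = 5.07e-05), so one matrix gene went against the others. Under median scaling 3 genes were higher and 1 lower, as Bgn and Tgfb2 were not called, and with the Y-linked covariate 2 were higher and 1 lower. Tgfb2 was not called on leaving out any of the 6 hearts, and Bgn was not called on leaving out any of 5. Of 19 fibroblast markers only Pi16 was called, and it was lower (-0.31) and not called with the Y-linked covariate or on leaving out any of 5 hearts. Their summed level was 882 to 1055 in CTL and 940.3 to 973 in Hom-CKO hearts.

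None of the 20 macrophage, 16 endothelial, 12 smooth muscle, 7 erythroid, 6 adipocyte or 14 neural and Schwann cell markers tested was called. The summed macrophage level was 74.3 to 135 in CTL and 77.9 to 84.1 in Hom-CKO hearts, which overlapped, and the adipocyte gene Adipoq was at the floor in all 6. 1 of 11 skeletal muscle markers, the fast troponin Tnni2, was lower (log2 fold change -0.70). Of 20 complement and acute phase genes, the protease gene Masp1 was higher (0.51) and Lrg1 lower (-0.77). Neither was called with the Y-linked covariate, and Lrg1 was not called on leaving out any of 5 single hearts. In bulk tissue fewer cells of a type and less RNA per cell cannot be told apart. The cardiac actin gene Actc1, a defining gene of cardiomyocytes, was at 587, 625 and 625 in CTL and 625, 625 and 625 in Hom-CKO hearts and was saturated on all 6 arrays, so no difference can be read from this gene, and it does not tell ventricle from atrium.

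**Figure D3:**
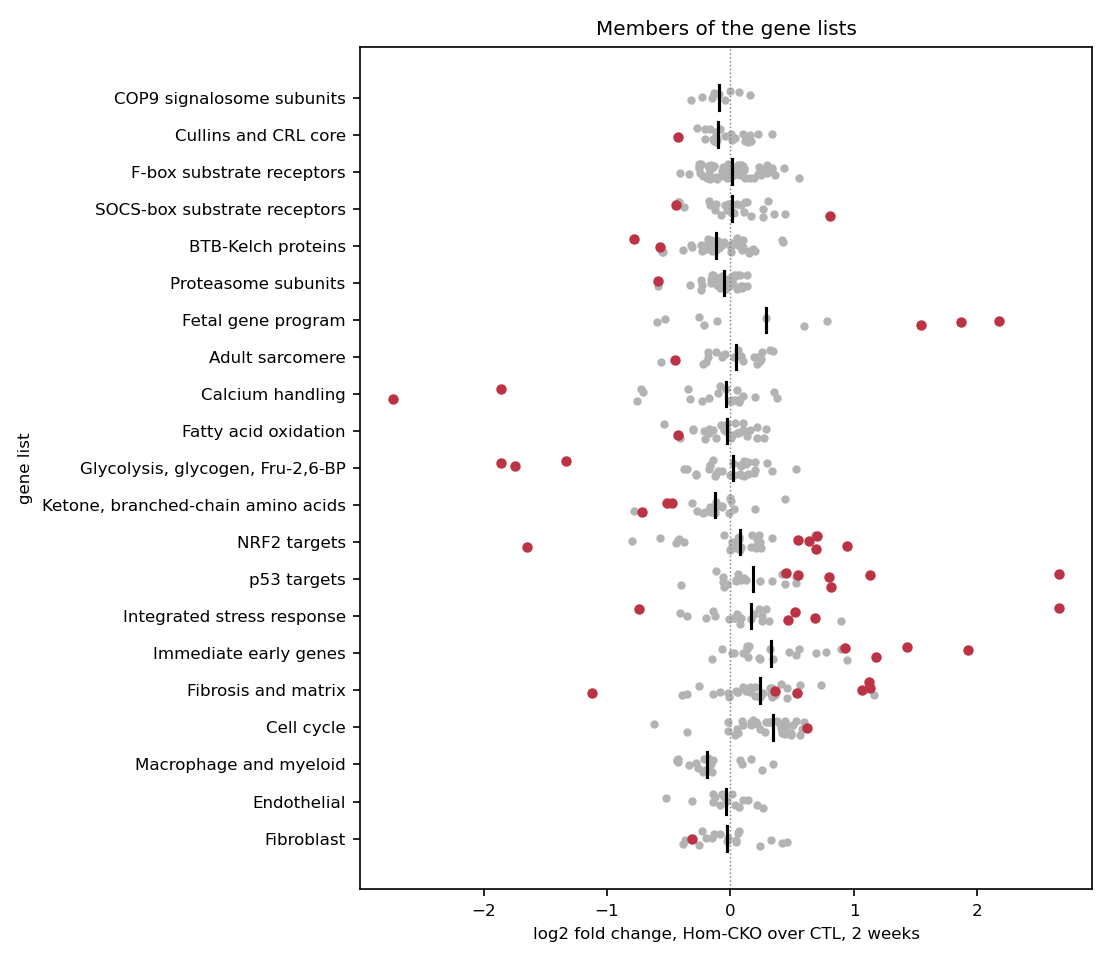
Each point is a gene of a list at its brightest probe, placed by its log2 fold change of Hom-CKO over CTL at 2 weeks, with called genes in red, other genes in grey and the list's median as a black bar. The red points are few in every list and lie mostly to the right for p53 targets, NRF2 targets, immediate early and matrix genes. They lie to the left for carbohydrate genes and for the ketone and branched-chain amino acid list. The red points of the latter are Mccc1, Mccc2 and Ppm1k, none of them a ketone gene.

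Of 33 carbohydrate genes 3 were lower and none higher, against 2.11% and 1.6% of all genes, and 17 of the 33 had a log2 fold change above 0. Phkg1, the muscle catalytic subunit of phosphorylase kinase, was at 7.36, 8.12 and 8.76 in CTL and 1.99, 2.32 and 2.38 in Hom-CKO hearts (log2 fold change -1.86, SE 0.13, adjusted p = 4.52e-07). Pfkfb1, which makes and breaks down the regulator of phosphofructokinase, was at 4.13, 3.05 and 3.9 in CTL and 0.98, 0.938 and 1.42 in Hom-CKO hearts (log2 fold change -1.75, adjusted p = 6.63e-05). Fbp2, the muscle fructose bisphosphatase, was at 10.7, 11 and 8.72 in CTL and 3.78, 4.15 and 4.09 in Hom-CKO hearts (log2 fold change -1.34, adjusted p = 0.000261). In each of the 3 genes every Hom-CKO heart was below every CTL heart, and the median log2 fold change of the list was 0.02. The study had already listed all 3 among its top falls in Hom-CKO vs. Het-CKO, so the list's count is a description only. In branched-chain amino acid and ketone breakdown 3 of 21 genes fell, the 2 subunits of the leucine pathway carboxylase, Mccc1 (-0.47) and Mccc2 (-0.52), and the phosphatase Ppm1k (-0.72), and none remained called with the Y-linked covariate. Fatty acid oxidation had 1 of 29 genes lower, Hadh (-0.43), and none of 16 ATP synthase genes was called. Under median scaling 7 fatty acid oxidation genes were lower.

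Genes of contraction and excitation are given beside all genes, of which 1.6% were called higher and 2.11% lower. Of 23 adult sarcomere genes, Tcap, which caps titin, was lower (-0.45), and of 23 calcium handling genes Pcp4 and Phkg1 were. Median scaling gave 6 sarcomere and 5 calcium genes lower, among them Pln, the inhibitor of the calcium pump, which had a log2 fold change of 0.04 after quantile normalization and of -0.40 after median scaling. Ion channel genes changed in both directions. Kcne1, a potassium channel subunit, was at 2.56, 4.72 and 2.62 in CTL and 8.25, 7.84 and 8.44 in Hom-CKO hearts (log2 fold change 1.37, adjusted p = 0.00122). Kcnd2, the transient outward potassium channel, fell on 3 of its 7 tested probes, by 0.98, 1.16 and 1.24 on the log2 scale. The water channel gene Aqp4, described above, fell as well.

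For genes of the ligases on which the CSN acts, and of their receptors, the shares over all genes were again 1.6% higher and 2.11% lower. With so few calls in lists of this size, the counts do not set these genes apart from all genes. Of 24 cullin and CRL core genes Cul4b alone was called, lower by 0.43 on the log2 scale and not called with the Y-linked covariate, and Cul4b is X-linked. None of 64 F-box genes was called (median log2 fold change 0.01), while 2 were lower under median scaling and 1 without CTL replicate 1. Of 30 SOCS-box genes Spsb4 was higher (0.80) and Asb14, a gene of striated muscle, lower (-0.44). Spsb4 was not called under median scaling, with the Y-linked covariate or on leaving out any of the 6 hearts, and Asb14 was not called on leaving out any of 5 hearts. Of 43 BTB-Kelch genes Klhl41, a muscle protein (-0.78), and Klhl13 (-0.57) were lower. Klhl13 was not called with the Y-linked covariate, with the replicate block or on leaving out any of 4 hearts. The proteasome list had Psme1, an activator subunit, lower on 1 of 2 probes (-0.59) among 38, and the autophagy list had Pik3r4, a subunit of the lipid kinase that starts autophagosomes, lower (-0.64) among 42. Psme1 was not called with the Y-linked covariate or on leaving out any of 5 hearts.

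Among 50 tubulin and microtubule genes, Tppp, which promotes tubulin assembly (-1.18), and Agtpbp1, which trims glutamates from tubulin (-0.60), fell beside Ttll1, and Mical3, an oxidoreductase of vesicle transport, rose (0.73). Agtpbp1 was not called with the Y-linked covariate. Of 56 vesicle genes Syn2 and the cargo receptor-like gene Lman1l (0.63) were higher, and with the covariate neither was called at its brightest probe. Of 47 chromatin and histone genes 3 were lower and none higher, against 2.11% and 1.6% of all genes. H1f2, a linker histone, was at 6.79, 6.4 and 5.44 in CTL and 2.3, 2.92 and 3.33 in Hom-CKO hearts (log2 fold change -1.14, adjusted p = 0.000133). H1f0 (-0.47) and H2bc18 (-0.66) fell with it. H1f0 was not called with the Y-linked covariate or on leaving out any of 4 single hearts, and with that covariate the list had 2 genes lower. Another H2bc18 probe (GE1502080, -0.11) was not called. Histone genes of a cluster are alike in sequence, so their probes may share transcripts. Of 26 ERK/MAPK genes, Prkcd and the Ras effector Rin1 (1.18) were higher and Map2k6, a kinase of the stress-activated branch, was lower (-0.77).

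Het-CKO hearts share the Cre transgene with Hom-CKO hearts and keep 1 Cops8 allele. They give a further reading of these genes, in comparisons that share hearts with Hom-CKO vs. CTL. In sex-linked genes the Het-CKO hearts of 2 weeks stood with the CTL hearts. Their Xist level was 4.11, 4.12 and 4.27 on the log2 scale, and Ddx3y was at the floor. Hom-CKO vs. Het-CKO thus has the same sex-linked imbalance as Hom-CKO vs. CTL, and its values below are not adjusted for it. Het-CKO and CTL hearts differed at 436 of 26576 probes (1.64%), 391 higher and 45 lower, and Hom-CKO and Het-CKO hearts at 842 of 26580 (3.17%). Gdf15 was at 0.341, 0.318 and 0.318 in Het-CKO hearts (Het-CKO vs. CTL log2 fold change -0.65, adjusted p = 0.372 and Hom-CKO vs. Het-CKO 3.31, adjusted p = 2.67e-05). Het-CKO replicates 2 and 3 were at the floor, so both differences have no exact size, and the fit takes the floor as measured. Prkcd was at 3.93, 4.24 and 4.26 and Ttll1 at 7.67, 7.24 and 7.45 in Het-CKO hearts, and against these Hom-CKO hearts differed by 1.55 and -1.83 on the log2 scale (adjusted p = 5.79e-08 and 1.69e-07). The Het-CKO vs. CTL log2 fold changes were -0.15 (adjusted p = 0.434) and -0.22 (adjusted p = 0.377). Acta1 was at 50.2, 51 and 58.4 in Het-CKO hearts, between the lower CTL hearts and the Hom-CKO hearts, with a Het-CKO vs. CTL log2 fold change of 0.75 (adjusted p = 0.311) and a Hom-CKO vs. Het-CKO log2 fold change of 1.43 (adjusted p = 0.0288). The probe named Ighv1-54 behaved otherwise, with a Het-CKO vs. CTL log2 fold change of 5.87 (adjusted p = 8.83e-10) and a Hom-CKO vs. Het-CKO log2 fold change of 0.57 (adjusted p = 0.18). Ncam2, a neural adhesion molecule among the largest Het-CKO rises (1.37), had a Hom-CKO vs. CTL log2 fold change of 0.46 (adjusted p = 0.175).

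**Figure D4:**
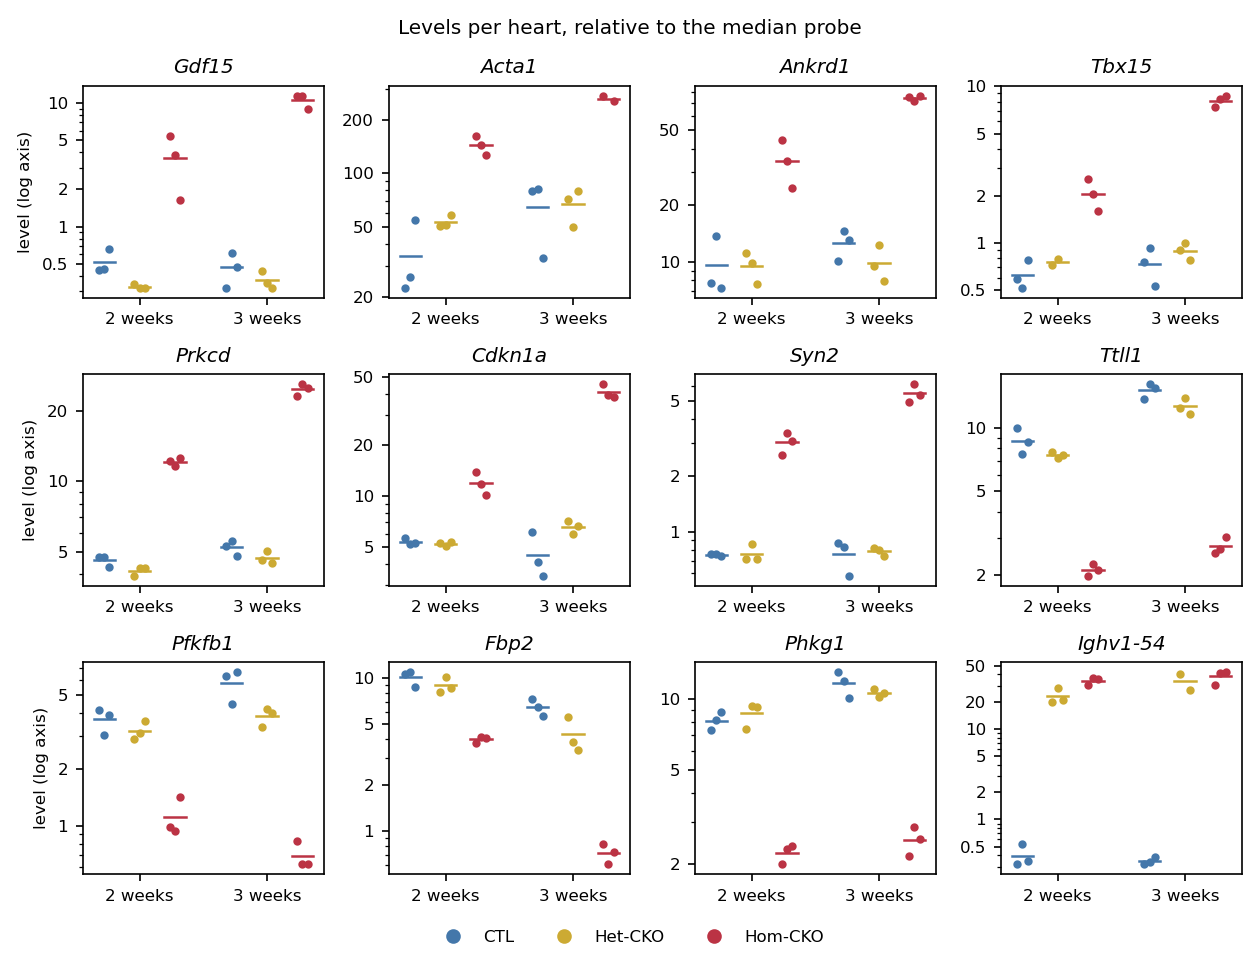
Levels of 12 probes in every heart on a log axis, relative to the median probe, in CTL (blue), Het-CKO (yellow) and Hom-CKO (red) hearts at 2 and 3 weeks, with lines at group means. Hom-CKO hearts are apart from the other genotypes for 11 of the 12, and the probe named Ighv1-54 is high in Het-CKO and Hom-CKO hearts alike.

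The 3-week groups are other hearts of the same genotypes. There Hom-CKO and CTL differed at 5204 of 26589 probes (19.6%), 2418 higher (9.09%) and 2786 lower (10.5%). Of the 342 probes higher at 2 weeks, 278 (81.3%) were also higher at 3 weeks, 63 were not called and 1 was lower, and of the 460 lower probes 396 (86.1%) were lower, 64 were not called and none was higher. The median log2 fold change of the probes higher at 2 weeks was 0.61 at 2 weeks and 0.82 at 3 weeks, and that of the lower probes was -0.62 and -0.84. The fit shares 1 estimate of each probe's spread over all 18 arrays, and each age was a scan set of its own, so that an effect of age cannot be told apart from one of the scan set. Xist was at 9.97, 0.318 and 11.1 in the CTL and 13.2, 0.318 and 14.6 in the Hom-CKO hearts of 3 weeks.

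**Figure D5:**
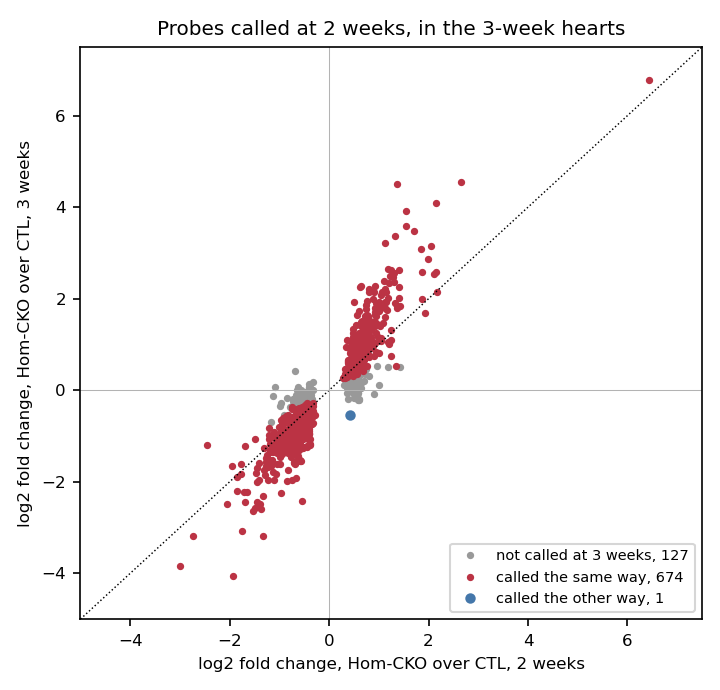
The 802 probes called in Hom-CKO vs. CTL at 2 weeks, with the log2 fold change at 2 weeks on the x axis and that at 3 weeks, in other hearts, on the y axis, and a dotted line of equal values. Of these, 674 were called the same way at 3 weeks (red), 127 were not called (grey) and 1 was called the other way (blue).

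The change between the ages was tested as the difference of the Hom-CKO vs. CTL differences, and 366 of 26566 probes (1.38%) passed. Cdkn1a differed more at 3 weeks, where it was at 6.13, 4.09 and 3.38 in CTL and 45.8, 39.3 and 38.5 in Hom-CKO hearts (log2 fold change 3.23 against 1.13 at 2 weeks, difference 2.10, adjusted p = 0.00016). Fbp2 was at 7.27, 6.5 and 5.69 in CTL and 0.825, 0.603 and 0.723 in Hom-CKO hearts at 3 weeks (log2 fold change -3.18 against -1.34, difference -1.85, adjusted p = 0.000617). The Hom-CKO and CTL hearts did not overlap in either gene at either age. Prkcd and Tbx15 (GE1411706) also differed more at 3 weeks, by 0.85 and 1.77 on the log2 scale. The 3-week log2 fold change of Gdf15 was 4.54 (difference 1.88, adjusted p = 0.059) and that of Acta1 2.14 (difference -0.04, adjusted p = 0.989), neither difference passing the test. CTL replicate 1 was at the floor for Gdf15 at 3 weeks, so 4.54 and 1.88 have no exact size. By list, fetal genes had 7 of 11 higher at 3 weeks with a median log2 fold change of 1.03, p53 targets 13 of 24 with a median of 0.61, and matrix genes 23 of 38 with a median of 0.59, where 9.8% of all genes were higher and 12.4% lower. Fatty acid oxidation genes, of which Hadh was the only call at 2 weeks, had 11 of 29 lower at 3 weeks. Hadh differed between the ages by -0.78 on the log2 scale (adjusted p = 0.00267).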

How the data were processed

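Ventricular RNA of single hearts was hybridised to 1-colour CodeLink arrays. Per the file headers, the deposited raw intensity of a spot is its pixel mean minus the local background median, as made by the scanner software, and the series table holds the same intensity scaled by the authors to the median of its array, with no log2 step. Quantile normalization, which the study's methods name, is not part of these values and was done here. Discovery probes (34967 per array) were used, and spots marked contaminated, irregular or masked were left out. After quantile normalization of the 18 arrays, values were expressed relative to the median probe. Values under a floor were set to it, and log2 was taken. The floor was the median over arrays of the 1st percentile among probes above background. It was not a percentile of all values, as spots near background were left out of it. A probe entered the fit if some group had it above background in all 3 hearts. The fit used limma 3.58.1 in R 4.3.3 (1 mean per group, 26606 probes, 3.56 prior degrees of freedom, Benjamini-Hochberg adjustment per comparison). The number of arrays limits the precision. The script was tested on simulated data.

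Gene names came from the platform annotation and the files (29084 probes with 1 name, 681 with several, 5202 with none), and a gene stands in a list at its brightest probe. The members and lists were chosen with earlier results of these data known. Named genes are the signalosome subunits, the 12 largest rises and falls without overlap between hearts, up to 5 called members of each list in either direction and others needed to describe a list, the 4 largest rises and falls of Het-CKO vs. CTL, the 5 largest changes between the ages in either direction, and markers. Alternatives were other scalings, filters, background correction, floors, flags, array sets, the methods' t-test, a trend, a replicate block, a Y-linked covariate and single hearts left out. Leaving out Hom-CKO replicates 2 and 3 together was chosen after seeing the data. Promoter windows are RefSeq's (GRCm38.p6). No probe sequence was used. 1 result of the ion channel list is not reported here.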

Additional observations from a re-analysis of the deposited data

Results flagged for a closer look

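For 27 named probes the Hom-CKO vs. CTL difference at 3 weeks was not the same as that at 2 weeks by the interaction term of the limma fit, and each value below is the 3-week minus the 2-week log2 fold change. Ages and scan sets cannot be told apart in these values. Among the genes described above, the interaction was 2.10 for Cdkn1a, 1.35 for Phlda3, 0.85 for Prkcd, 0.84 for Rin1, 1.77 and 1.96 for the 2 Tbx15 probes, 0.88 for Syn2 (GE39786), 1.64 for Lman1l and 0.72 for Mical3. It was 1.08 for Col8a1, 0.74 for Tgfb2, 1.41 for Masp1, 1.09 for Mfsd4b5 and 0.49 for Pi16, which was lower at 2 weeks. It was negative for Fbp2 (-1.85), Pfkfb1 (-1.32), Hadh (-0.78) and Asb14 (-0.79), which fell further below CTL at 3 weeks.

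Other probes with large interactions were those of Ido1, which opens tryptophan breakdown (3.36), and Cda, a cytidine deaminase (3.12). The fitted values of Bdh1, a ketone body dehydrogenase (4.13), Serpinb1c (3.15) and the exchange factor Rasgrf2 (2.92) rest on CTL hearts in which the probe was not well above background on any array at 2 weeks (Rasgrf2 and Serpinb1c also at 3 weeks), and that of Mfsd4b5 on such CTL hearts at 3 weeks, so these 4 have no exact size. Negative values were found for Lgi1 (-2.36), Lrat, which esterifies retinol (-2.14), Jade1 (-2.02) and 2310039L15Rik (-1.86). Of the 27, 20 were called under median scaling, with the replicate block and without each single heart, 14 settings in all. The other 7 were Col8a1, Mical3, Pfkfb1, Pi16, Rin1, Syn2 and the Tbx15 probe GE33765, each of which lost the call without at least 1 heart. Groups of 3 hearts were not tested for outlying samples.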

How the results depend on the processing

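In Hom-CKO vs. CTL at 2 weeks, 802 probes were called, 342 higher and 460 lower. The count of calls moved to 268 (110 higher, 158 lower) in a fit on the 6 arrays alone, 10 (7 and 3) with the methods' t-test, 429 (152 and 277) with the Y-linked covariate, and 200 (75 and 125) without Hom-CKO replicates 2 and 3. Median scaling left 222 higher. Leaving out 1 heart gave 484 (Hom-CKO replicate 2) to 814 calls (CTL replicate 3), 192 to 329 higher and 274 to 485 lower, with 525 without Hom-CKO replicate 1 and 530 without Hom-CKO replicate 3. The 136 probes with a difference of at least 1 became 36 with normexp background correction and 5 with the methods' t-test. For the interaction, 366 calls became 219 (without Hom-CKO replicate 3) to 347 on leaving out a 2-week heart and 243 (without Hom-CKO replicate 2) to 608 (without CTL replicate 3) on leaving out a 3-week heart. The other alternatives kept these counts within 1.5 times, and no call had the opposite sign in any. Reversed were Pln (-0.40 under median scaling, -0.36 in the series table) and Tnni3 (-0.41 and -0.37), with 0.04 and 0.05 and no call after quantile normalization, and at 3 weeks Actc1 (-0.46) and Tnnt2 (-0.39) under median scaling. Actc1 was saturated at 3 weeks on 1 CTL and 2 Hom-CKO arrays, so its value is not a measured difference. The cause of the reversals was not tested. Some of the 90 called probes of named genes were not tested in every setting. Of the 90, 37 were called in each of the 19 settings other than the t-test that tested them. Under median scaling 13 were lost, with the Y-linked covariate 33, and without at least 1 heart 33. The labels name no litter, and same-numbered hearts correlated at -0.06, -0.25 and 0.02 in their deviations from the group means, so the numbers were not taken as pairs. With the replicate number as a block, 652 probes were called, 582 of them shared, and the interaction had 302. With 3 hearts a group, small differences and probes near background could not be resolved.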
